A study of Mus musculus with 6 samples.

Results

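The genes described here encode the enzymes and the cofactor that turn the VEGF-C precursor into its active form, and they were measured by bulk RNA sequencing of sorted dural lymphatic endothelial cells (LECs). The 9 genes *Ccbe1*, *Adamts3*, *Adamts2*, *Adamts14*, *Furin*, *Pcsk5*, *Pcsk7*, *Ctsd* and *Plat* were picked by name for their known role in VEGF-C maturation, out of 55401 gene rows. All 9 were found once each in both tables, and all 9 passed the filter on low counts. Wild-type male C57BL/6J mice received an adeno-associated virus (AAV) by injection into the cisterna magna at 4 weeks of age, encoding full-length mouse VEGF-C (AAV-VEGF-C) or a soluble part of VEGFR-3 that does not bind VEGF-C (AAV-CTRL). Dural cells positive for CD31, podoplanin and LYVE-1 and negative for CD45 were sorted. Each group had 3 libraries, 1 for each repeat of the experiment (numbered 1 to 3 in both groups), and each library held 10 to 12 pooled animals. The interval between injection and this sort was not given in the sources used here.

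VEGF-C is secreted as a precursor with a propeptide at each end. Proprotein convertases such as furin, PC5 and PC7 cut it before the C-terminal propeptide. Outside the cell, ADAMTS3 then removes the N-terminal propeptide with the help of CCBE1, a matrix-bound cofactor, and the mature growth factor binds VEGFR-3 more strongly. Mice without CCBE1 or ADAMTS3 fail to form lymphatic vessels. ADAMTS2 and ADAMTS14 are close relatives of ADAMTS3 that are best known for trimming procollagens, and cathepsin D and plasmin, which tissue plasminogen activator generates, can also cut VEGF-C.

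Depth and composition differed between the libraries in ways that touch these genes. The totals ran from 6530269 to 12399498 estimated counts in AAV-CTRL and from 564475 to 3261935 in AAV-VEGF-C, so depth and treatment cannot be told apart. All 8 LEC markers were detected in every library, with a summed level of 461 to 574 TPM (a unit that corrects for gene length and scales each library to the same total) in AAV-CTRL and 149 to 336 TPM in AAV-VEGF-C. The 6 fibroblast markers summed to 934 to 1995 TPM in AAV-CTRL and 237 to 784 TPM in AAV-VEGF-C, above the LEC markers in 5 of the 6 libraries. In AAV-CTRL 1, *Col1a1* and *Col1a2* held 910 and 790 of the 1995 TPM, so these sums do not compare numbers of cells. In both libraries of experiment 1 *Ptprc*, which encodes CD45, was at 0.119 and 0.337 TPM, against 9.81 to 25.7 TPM in the other 4 libraries. A set of 2142 genes from families with no known use in endothelium (olfactory, vomeronasal and taste receptors, keratin-associated proteins and defensins), called silent families here, received 165 to 298 CPM (counts scaled to a fixed library total) in AAV-CTRL. In AAV-VEGF-C they received 2986 to 7185 CPM. TPM values were lower in AAV-VEGF-C for most genes, with a median log2 fold change of -0.72 on the log2(TPM + 1) scale. Differences between groups were therefore taken from counts with TMM scaling (edgeR), where the median over the 17459 genes tested was -0.0037.

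*Ctsd* and *Adamts2* were the most abundant of the 9 genes by mean TPM in both groups, and *Adamts14* the least. In AAV-CTRL the order of mean levels in TPM was *Ctsd*, *Adamts2*, *Furin*, *Plat*, *Pcsk5*, *Pcsk7*, *Adamts3*, *Ccbe1* and *Adamts14*. Neighbours in this order overlapped between libraries for *Furin* and *Plat*, for *Pcsk5* and *Pcsk7*, and for *Pcsk7* and *Adamts3*, so these pairs were not told apart. By mean TPM in AAV-VEGF-C the order was the same except that *Ccbe1* stood at rank 6, above *Pcsk7* and *Adamts3*. There the neighbours in the AAV-CTRL order overlapped except for *Adamts3* and *Ccbe1*, where *Ccbe1* was the higher, and for *Ccbe1* and *Adamts14*. *Ccbe1* was above *Pcsk7* in AAV-VEGF-C 1 alone. Among 21897 protein-coding genes ranked by TPM within a library, *Ctsd* stood at percentile 98.8 to 99.5 in all 6 libraries, and *Adamts14* at 34.2 to 41.3. *Ccbe1* stood at 94.1 in AAV-VEGF-C 1 and at 43.0 to 65.3 in the other 5 libraries. A percentile does not stand for the same level in each library. *Pcsk5* stood at 93.9 with 6.45 TPM in AAV-VEGF-C 1 and at 85.3 with 11.1 TPM in AAV-CTRL 1.

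**Figure D1:**
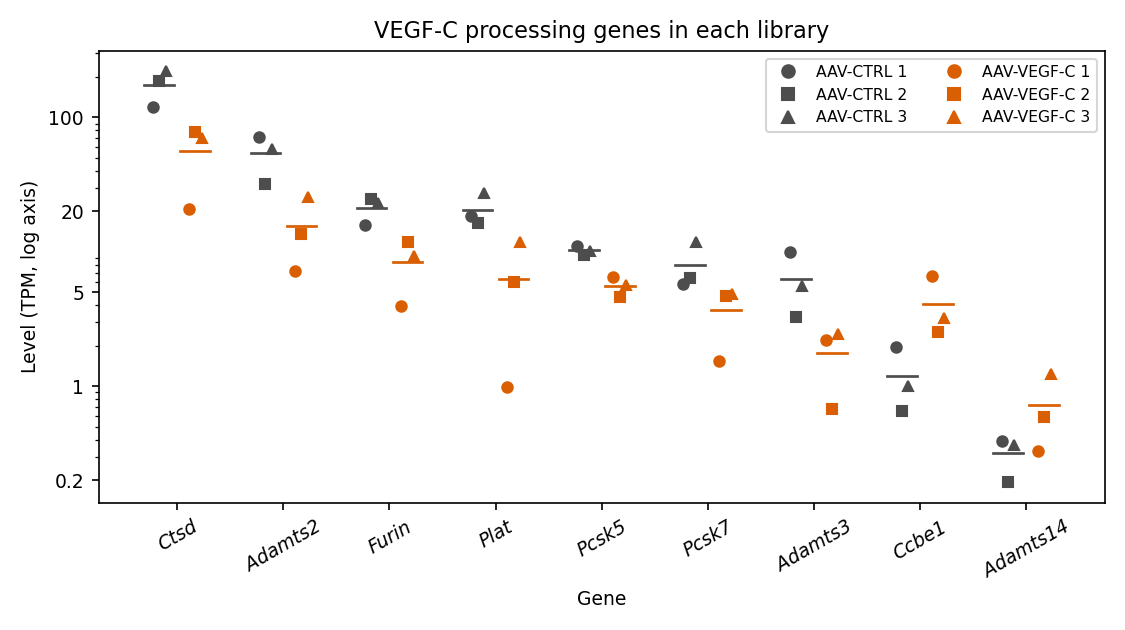
The vertical log axis gives the level of each of the 9 genes in TPM, with 1 point for each library (shape marks the experiment) and a bar at the mean of the 3 libraries of a group. In 7 genes the AAV-VEGF-C points lie below the AAV-CTRL points without overlap, in *Ccbe1* they lie above, and in *Adamts14* the groups overlap.

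At a Benjamini-Hochberg adjusted p under 0.05 (edgeR's quasi-likelihood test over all genes tested), 1 of the 9 genes was higher in AAV-VEGF-C, *Adamts14*, and 0 were lower. The same test called 10.5% of all genes tested higher and 0.659% lower, so 1 of 9 is near the background. With the experiment number as a block, *Ccbe1* was called as well, giving 2 of 9 genes against a background of 12.8% higher. The median log2 fold change of the 9 genes was -0.46, with 3 positive and 6 negative values, beside -0.0037 for all genes tested. This lean depended on the genes tested. With a floor of 5 on the mean TPM, *Adamts2*, *Plat*, *Ctsd* and *Furin* were at -0.55, -0.53, -0.33 and -0.094. *Pcsk7* and *Pcsk5* were then at 0.30 and 1.32, and the median of all genes was -0.0382. *Adamts3*, *Ccbe1* and *Adamts14* did not pass that floor. Without the block, 2 of the 9 had an unadjusted p under 0.05 (edgeR), as had 4905 of all 17459 genes tested. With no filter the same test called 2 members higher (background 21.1%) and 3 lower (background 2.64%), and DESeq2 called 2 higher (background 18.6% of the genes it gave an adjusted p) and 0 lower (background 1.60%). The blocked fit called 0 members lower, against a background of 2.07%. In TPM, the groups did not overlap for 8 of the 9 genes: 7 were lower in AAV-VEGF-C, as were 36.4% of all genes tested, and 1 was higher, as were 12.8%. In CPM, which is not corrected for length, 3 of the 9 genes (*Furin*, *Ctsd* and *Plat*) were lower without overlap (background 19.1%) and 2 (*Ccbe1* and *Adamts14*) were higher (background 20.6%).

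**Figure D2:**
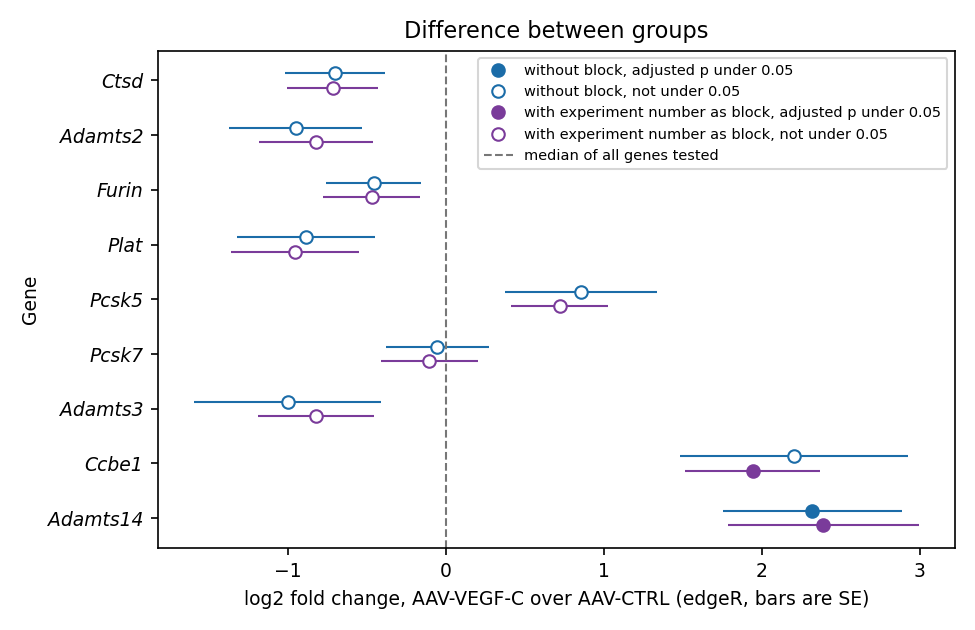
Each point is the edgeR log2 fold change of a gene, AAV-VEGF-C over AAV-CTRL, with its SE as a bar, without (blue) and with (purple) the experiment number as a block. Filled points have an adjusted p under 0.05. *Adamts14* is filled in both fits, *Ccbe1* in the blocked fit, and the other 7 genes in neither.

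*Ccbe1* (ENSMUSG00000046318.16) encodes the cofactor that brings ADAMTS3 and VEGF-C together. It lies on chromosome 18 from 66045302 to 66302741 on the minus strand of GRCm38, and its exons overlap the predicted gene *Gm15958* on the other strand, which had at most 5 counts in any library. Its level was 1.95, 0.652 and 1.01 TPM in AAV-CTRL 1, 2 and 3 and 6.58, 2.55 and 3.24 TPM in AAV-VEGF-C 1, 2 and 3. All 3 AAV-VEGF-C libraries were above all 3 AAV-CTRL libraries, and the means were 1.20 ± 0.668 and 4.12 ± 2.16 TPM (SD, n = 3 each). No other member was higher in TPM without overlap (two-sided exact permutation p = 0.1, which 3 against 3 libraries cannot go below).

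These levels rested on 63, 37 and 82 counts of *Ccbe1* in the AAV-CTRL libraries, and the AAV-VEGF-C libraries held 32, 20 and 50. The log2 fold change was 2.20 (SE 0.72, edgeR adjusted p 0.0940), and with the block it was 1.94 (SE 0.43, adjusted p 0.0189). Over the 16 fits tried that tested the gene, its adjusted p ran from 0.00375 to 0.198 and the fold change was positive in all 16. Without AAV-VEGF-C replicate 1 the log2 fold change was 1.04 (adjusted p 0.164), and that library held the highest value. Within the experiments the log2 difference between groups in scaled CPM was 2.81, 1.51 and 1.298 in experiments 1, 2 and 3. Background reads moved in the same direction: the silent families averaged 0.0242 to 0.0350 TPM per gene in AAV-CTRL and 0.330 to 0.366 TPM per gene in AAV-VEGF-C. Of the 2142 silent genes, 19, 25 and 6 were at or above *Ccbe1* in AAV-VEGF-C 1, 2 and 3, and 2, 10 and 3 in AAV-CTRL 1, 2 and 3. The part of this background in the higher level of *Ccbe1* was not tested.

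*Adamts3* (ENSMUSG00000043635.12) encodes the protease that CCBE1 assists. The gene is on chromosome 5 from 89677087 to 89883334, on the minus strand, and its exons overlap no other gene. Its level was 9.92, 3.28 and 5.56 TPM in AAV-CTRL 1, 2 and 3 and 2.21, 0.681 and 2.45 TPM in AAV-VEGF-C 1, 2 and 3. The groups did not overlap in TPM, with means of 6.25 ± 3.37 and 1.78 ± 0.959 TPM (SD, n = 3 each), but they overlapped in CPM. The log2 fold change was -1.005 (SE 0.59, edgeR adjusted p 0.308), and without AAV-CTRL replicate 1 it was -0.35 (adjusted p 0.675). AAV-CTRL libraries held 330, 135 and 281 counts of it, and AAV-VEGF-C libraries held 10, 10 and 57. It was negative within each experiment, at -1.18, -1.20 and -0.21 in experiments 1, 2 and 3.

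The balance between cofactor and protease was read within each library, which needs no scaling between libraries. This ratio was chosen after the values of the genes were seen. *Ccbe1* took 16.0%, 21.5% and 22.6% of the counts of both genes in AAV-CTRL 1, 2 and 3, with 95% exact Clopper-Pearson intervals of 12.5 to 20.04, 15.6 to 28.4 and 18.4 to 27.2. Its share was 76.2%, 66.7% and 46.7% in AAV-VEGF-C 1, 2 and 3, with intervals of 60.5 to 87.9, 47.2 to 82.7 and 37.0 to 56.6. No interval of one group overlapped an interval of the other, which is a description and not a test, because the ratio was chosen from these values. These intervals take each read as a separate molecule, which need not hold, and they leave out the spread between pools of animals.

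In TPM the ratio of *Ccbe1* to *Adamts3* was 0.196, 0.199 and 0.181 in AAV-CTRL 1, 2 and 3 and 2.98, 3.74 and 1.32 in AAV-VEGF-C 1, 2 and 3. In TPM *Adamts3* was thus above *Ccbe1* in every AAV-CTRL library and below it in every AAV-VEGF-C library. In counts it was below *Ccbe1* in AAV-VEGF-C 1 and 2 and above it in AAV-VEGF-C 3, with 57 against 50 counts. On the log2 scale the AAV-CTRL libraries had a mean ratio of -2.38 ± 0.0699 and the AAV-VEGF-C libraries one of 1.29 ± 0.788 (SD, n = 3 each), a difference of 3.68 (12.8-fold, two-sided exact permutation p = 0.1). It was 3.53 without AAV-VEGF-C replicate 1, 3.55 without both libraries of experiment 1, and 2.84 when counts were used in place of TPM. The silent families also differed between the groups, as given above, and their part in this ratio was not tested.

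**Figure D3:**
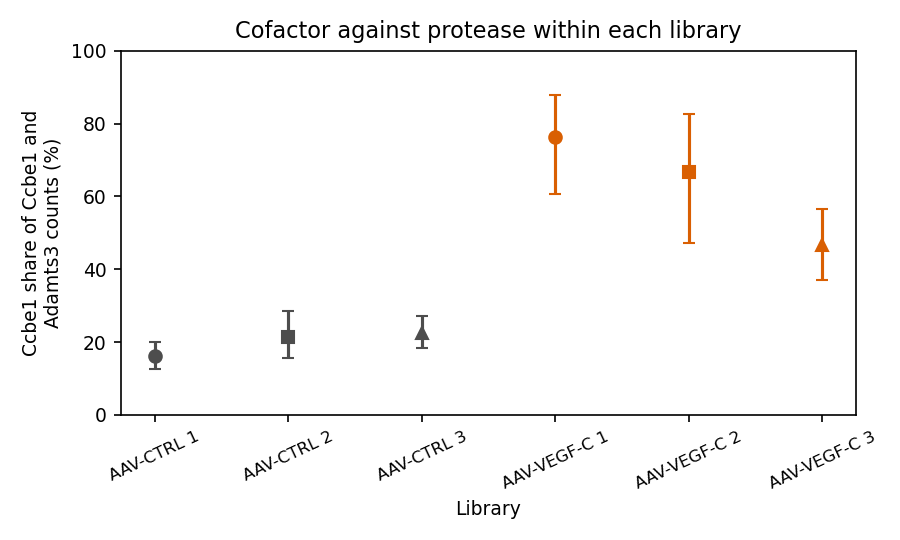
The vertical axis gives the counts of *Ccbe1* as a percent of the counts of *Ccbe1* and *Adamts3* together in each of the 6 libraries, and bars are 95% exact binomial intervals. The 3 AAV-CTRL libraries sit at 16.0% to 22.6% and the 3 AAV-VEGF-C libraries at 46.7% to 76.2%.

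*Adamts14* (ENSMUSG00000059901.12, chromosome 10 from 61197112 to 61273438, minus strand) encodes the least abundant of the 3 related proteases, and its span overlaps no other gene. Its level was 0.394, 0.193 and 0.363 TPM in AAV-CTRL 1, 2 and 3 and 0.330, 0.587 and 1.24 TPM in AAV-VEGF-C 1, 2 and 3. The groups overlapped in TPM, since AAV-VEGF-C 1 lay below AAV-CTRL 1 and 3 (means 0.317 ± 0.108 and 0.720 ± 0.471 TPM, SD, n = 3 each, exact permutation p = 0.3). AAV-CTRL libraries held 22, 10 and 32 counts and AAV-VEGF-C libraries 5, 10 and 54, and on these the log2 fold change was 2.32 (SE 0.57, edgeR adjusted p 0.0387). In CPM the groups did not overlap, and the difference in scaled CPM was 1.58, 2.11 and 2.59 on the log2 scale in experiments 1, 2 and 3. Without AAV-CTRL replicate 2 or 3 the log2 fold change was 1.98 and 2.16, and without AAV-VEGF-C replicate 1, 2 or 3 it was 2.28, 2.46 and 1.86. In these 5 fits the gene was not called, with an adjusted p of 0.0671 to 0.178. In the fits without AAV-CTRL replicate 2 or 3, 0 of all genes tested were called by edgeR, with 5070 and 4626 at an unadjusted p under 0.05. Over all 16 fits that tested *Adamts14* its adjusted p ran from 0.0103 to 0.302. Of the 2142 silent genes, 498, 344 and 60 were at or above *Adamts14* in AAV-VEGF-C 1, 2 and 3, against 25, 54 and 37 in AAV-CTRL 1, 2 and 3. AAV-VEGF-C 3, with the highest level of *Adamts14*, was thus near the AAV-CTRL libraries in this measure, and AAV-VEGF-C 1 and 2 were not. Whether this background made up the difference was not tested.

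*Adamts2* (ENSMUSG00000036545.9, chromosome 11 from 50602084 to 50807573, plus strand), the main procollagen N-proteinase, was the second most abundant member. Its level was 71.9, 31.8 and 58.5 TPM in AAV-CTRL 1, 2 and 3 and 7.22, 13.5 and 25.6 TPM in AAV-VEGF-C 1, 2 and 3. The groups did not overlap in TPM (means 54.0 ± 20.4 and 15.4 ± 9.33 TPM, SD, n = 3 each), and in counts the log2 fold change was -0.95 (SE 0.42, edgeR adjusted p 0.187). Without AAV-CTRL replicate 1 it was -0.47 (adjusted p 0.419). It was below 0 in each experiment, at -1.72, -0.50 and -0.29 in experiments 1, 2 and 3.

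Ranked by *Adamts2* or by the summed fibroblast markers, the 6 libraries fell in the same order. The ratio of *Adamts2* to *Col1a1*, which encodes a chain of type I collagen and thereby a substrate of ADAMTS2, was 0.0790, 0.0734 and 0.0949 in AAV-CTRL 1, 2 and 3. It was 0.0662, 0.0759 and 0.0654 in AAV-VEGF-C 1, 2 and 3, so the groups overlapped in this ratio. *Col1a1* itself had means of 653 TPM in AAV-CTRL and 226 TPM in AAV-VEGF-C. In counts the log2 fold change of *Col1a1* was -0.65 (SE 0.58, edgeR adjusted p 0.506). In these bulk samples fewer fibroblasts, less RNA per fibroblast and the lower TPM of most genes in AAV-VEGF-C cannot be told apart. All 6 fibroblast markers were lower in TPM without overlap, and so were 6 of the 8 LEC markers (background 36.4%). In counts 2 fibroblast markers (*Dcn* and *Ogn*) and 0 LEC markers were called lower (background 0.659%). The part of fibroblasts in the level of *Adamts2* was not tested. The ratio of *Adamts2* to its relative *Adamts3* was 7.24 to 10.5 in AAV-CTRL, and it was 3.27, 19.9 and 10.4 in AAV-VEGF-C 1, 2 and 3.

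Of the 3 convertases among the members, *Furin* (ENSMUSG00000030530.15, chromosome 7 from 80388585 to 80405436, minus strand) had the highest mean TPM in both groups. Furin is the ubiquitous convertase of the trans-Golgi network. Its level was 15.9, 24.9 and 22.9 TPM in AAV-CTRL 1, 2 and 3 and 3.98, 11.9 and 9.29 TPM in AAV-VEGF-C 1, 2 and 3. The groups did not overlap (means 21.2 ± 4.74 and 8.40 ± 4.06 TPM, SD, n = 3 each), yet the log2 fold change in counts was -0.46 (SE 0.30, edgeR adjusted p 0.362), and -0.76 without AAV-VEGF-C replicate 2 (adjusted p 0.198). Within experiments it was -1.18, -0.17 and -0.16, so it was furthest from 0 in experiment 1, which holds the shallowest library. Its exons overlap *Gm44851* on the other strand, which had at most 7 counts in any library.

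*Pcsk5* (ENSMUSG00000024713.16, chromosome 19 from 17432319 to 17837632, minus strand) encodes PC5, a convertase found in endothelium. Its level was 11.1, 9.54 and 10.2 TPM in AAV-CTRL 1, 2 and 3 and 6.45, 4.62 and 5.69 TPM in AAV-VEGF-C 1, 2 and 3. The groups did not overlap in TPM (means 10.3 ± 0.809 and 5.58 ± 0.921 TPM, SD, n = 3 each), and they overlapped in CPM, where AAV-VEGF-C 1 was highest at 177 CPM. Its direction depended on the scale: the log2 fold change in counts was 0.85 (SE 0.48, edgeR adjusted p 0.288) and on log2(TPM + 1) it was -0.78 (limma adjusted p 0.257). In counts it was 0.12 without AAV-VEGF-C replicate 1 (edgeR adjusted p 0.828) and 0.52 without AAV-CTRL replicate 3 (adjusted p 0.581). The value on the TPM scale lay close to the median of all genes on that scale, -0.72.

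*Pcsk7* (ENSMUSG00000035382.9, chromosome 9 from 45906497 to 45929726, plus strand) encodes PC7, a broadly expressed membrane-bound convertase. Its level was 5.74, 6.34 and 11.8 TPM in AAV-CTRL 1, 2 and 3 and 1.53, 4.73 and 4.87 TPM in AAV-VEGF-C 1, 2 and 3. The groups did not overlap in TPM (means 7.96 ± 3.34 and 3.71 ± 1.89 TPM, SD, n = 3 each). In counts it was the member closest to the median of all genes, at -0.056 on the log2 scale (SE 0.32, edgeR adjusted p 0.942). Its exons overlap *Rnf214* and *Tagln* on the other strand, and because the use of strand in counting is not given in the sources used here, its counts are uncertain. The ratio of *Furin* to *Pcsk7* stayed between 1.91 and 3.92 in all 6 libraries, with overlap between groups.

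*Ctsd* (ENSMUSG00000007891.16, chromosome 7 from 142375911 to 142388038, minus strand) encodes cathepsin D, an aspartic protease of the lysosome, and was the most abundant member. The promoter given by RefSeq for GRCm38.p6 (chr7:142387778-142388077, minus strand, from 250 bases before to 50 after the transcript start) is shown because *Ctsd* was by far the highest of the 9 genes. The capitals mark CACGTG, the E-box core of the element that lysosomal genes share, which occurs 2 times here:
Ctsd promoter: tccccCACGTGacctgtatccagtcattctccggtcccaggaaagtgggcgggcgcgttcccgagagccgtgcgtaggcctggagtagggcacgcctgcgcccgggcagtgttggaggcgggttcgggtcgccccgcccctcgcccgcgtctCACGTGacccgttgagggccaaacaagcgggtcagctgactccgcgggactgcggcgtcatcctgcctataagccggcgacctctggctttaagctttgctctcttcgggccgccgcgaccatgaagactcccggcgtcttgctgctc

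CACGTG reads the same on both strands. It was found in 7.15% of the 32851 promoters of that set, in 1 of the 8 promoters that matched 7 of the 9 members (*Ctsd*), and in 3 of the 10 promoters that matched 9 other cathepsin genes (*Ctsa*, *Ctsf* and *Ctsl*). A match describes the sequence and is not a binding site shown by these data.

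The level of *Ctsd* was 120, 187 and 221 TPM in AAV-CTRL 1, 2 and 3 and 20.8, 78.1 and 70.9 TPM in AAV-VEGF-C 1, 2 and 3. No AAV-VEGF-C library reached the lowest AAV-CTRL library (means 176 ± 51.1 and 56.6 ± 31.2 TPM, SD, n = 3 each). In counts the log2 fold change was -0.70 (SE 0.32, edgeR adjusted p 0.196), and within experiments 1, 2 and 3 it was -0.89, -0.61 and -0.65. Macrophages are rich in cathepsin D, and the 6 border macrophage markers summed to 23.8 TPM in AAV-CTRL 1 and 11.2 TPM in AAV-VEGF-C 1, against 547 to 1917 TPM in the other 4 libraries. Within each group *Ctsd* was lowest in experiment 1, where these markers were lowest, and the part of macrophages in its level was not tested. *Ctsb*, which encodes the lysosomal cysteine protease cathepsin B, was at 54.1 TPM in AAV-CTRL 1 and at 323 and 225 TPM in AAV-CTRL 2 and 3. The ratio of *Ctsd* to *Ctsb* was above 1 in both libraries of experiment 1 (2.22 and 1.69) and below 1 in the other 4 (0.510 to 0.982), so it split the libraries by experiment in both groups. *Gm49369* overlaps *Ctsd* on the same strand and received 29 to 927 counts in a library, so the split of reads between them is uncertain.

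**Figure D4:**
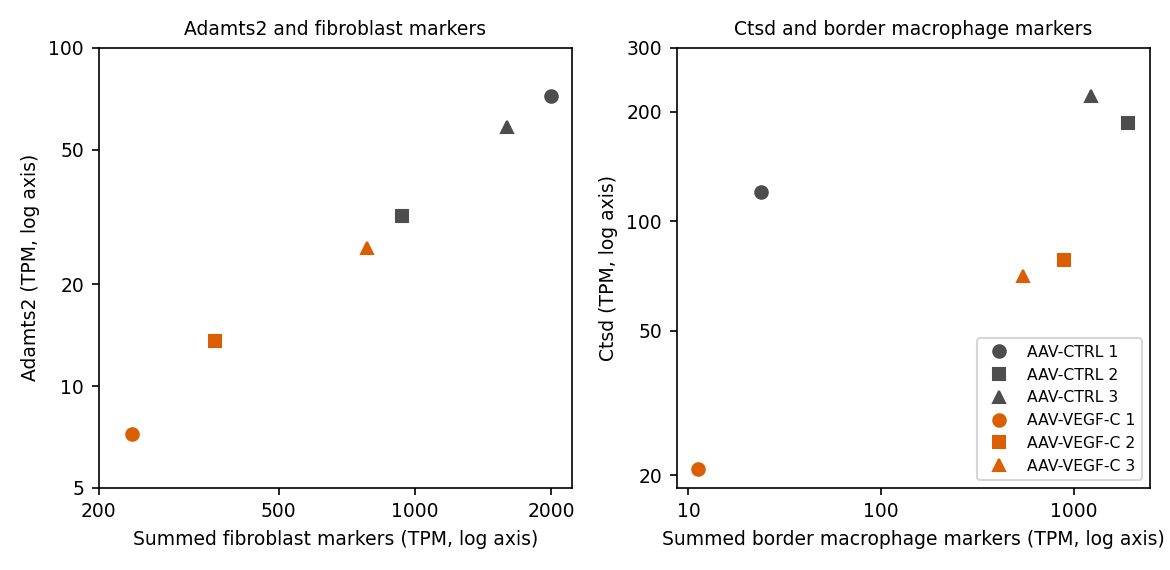
The left panel plots the level of *Adamts2* against the summed level of 6 fibroblast markers, and the right panel that of *Ctsd* against the summed level of 6 border macrophage markers, both in TPM on log axes, with 1 point for each library. *Adamts2* lies highest where the fibroblast markers are highest, while *Ctsd* in AAV-CTRL 1 is at 120 TPM with macrophage markers at 23.8 TPM.

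*Plat* (ENSMUSG00000031538.6, chromosome 8 from 22757727 to 22782844, plus strand) encodes tissue plasminogen activator, the serine protease of endothelium that turns plasminogen into plasmin, and its span overlaps no other gene. Its level was 18.5, 16.3 and 27.2 TPM in AAV-CTRL 1, 2 and 3 and 0.991, 5.98 and 11.8 TPM in AAV-VEGF-C 1, 2 and 3. The groups did not overlap (means 20.7 ± 5.77 and 6.25 ± 5.40 TPM, SD, n = 3 each). AAV-VEGF-C 1 held 6 counts of *Plat* (10.6 CPM), against 505 counts (77.3 CPM) in the deeper AAV-CTRL 1. The log2 fold change was -0.89 (SE 0.44, edgeR adjusted p 0.232), or -1.45 without AAV-VEGF-C replicate 3 (adjusted p 0.135), and within experiments it was -2.51, -0.61 and -0.33.

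The other genes of the pathway were taken from 7 lists with 62 genes, of which 52 passed the filter. Of these, 3 were higher and 3 were lower (edgeR adjusted p under 0.05), beside 10.5% and 0.659% of all genes tested. Their median log2 fold change was -0.44. An unadjusted p under 0.05 (edgeR) was reached by 17 of the 52, beside 4905 of all 17459 genes tested. With the experiment number as a block, 3 were higher and 7 were lower, beside 12.8% and 2.07% of all genes tested.

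Substrate and receptor transcripts showed no call. Of the 6 ligand and receptor genes 0 were called, with a median log2 fold change of -0.12. *Vegfc* was at 5.74, 4.38 and 17.8 TPM in AAV-CTRL 1, 2 and 3 and at 2.24, 3.26 and 2.35 TPM in AAV-VEGF-C 1, 2 and 3, and its log2 fold change was -0.32 (SE 0.55, edgeR adjusted p 0.757). Whether transcripts of the vector were counted in this row is not given in the sources used here. *Nrp1* and *Nrp2*, which encode the neuropilin coreceptors, were the most abundant of this list, with log2 fold changes of -0.78 and 1.11 (adjusted p 0.255 and 0.311).

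Among the other proprotein convertases 4 of 6 genes were tested and 0 were called. *Mbtps1*, which encodes the site-1 protease of the sterol pathway, was the highest at 38.8 TPM in AAV-CTRL, above *Furin* (log2 fold change -0.71, SE 0.26, edgeR adjusted p 0.126). *Pcsk6*, which encodes the matrix-bound convertase PACE4, was at 11.5 TPM, similar to *Pcsk5* at 10.3 TPM (log2 fold change 0.31, adjusted p 0.788).

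Of the 16 other ADAMTS genes 13 were tested, 1 was higher and 1 was lower. *Adamts1*, which encodes an aggrecan- and versican-cutting protease, was the most abundant ADAMTS gene of that list. It was at 68.5, 52.3 and 98.8 TPM in AAV-CTRL 1, 2 and 3 and at 9.34, 15.7 and 29.8 TPM in AAV-VEGF-C 1, 2 and 3, and it was lower (log2 fold change -1.22, SE 0.30, edgeR adjusted p 0.0413). *Adamts10*, known for its link to fibrillin microfibrils, came next at 38.4 TPM in AAV-CTRL (log2 fold change -0.37, adjusted p 0.492). With the block *Adamts5*, which encodes an aggrecan-cutting protease, was also called lower (-1.08, adjusted p 0.0454). *Adamts19* was higher (3.98, SE 0.85, adjusted p 0.0267) on 5, 1 and 3 counts in the AAV-CTRL libraries, and 4, 5 and 20 in the AAV-VEGF-C libraries.

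For plasminogen activation and its inhibitors, 8 of 11 genes were tested and 0 were called, with a median of -0.51. *Anxa2* and *S100a10*, whose products form the cell-surface complex that binds plasminogen and tissue plasminogen activator, led this list at 102 and 54.5 TPM in AAV-CTRL. Their log2 fold changes were -0.98 and -1.19 (edgeR adjusted p 0.0618 and 0.0536), and both were called lower with the block (adjusted p 0.0401 and 0.0341). *Plg*, which encodes plasminogen itself and is made mainly by the liver, did not pass the filter, with a mean of 0.0167 TPM in AAV-CTRL.

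Of the 13 other cathepsins 11 were tested and 10 had a negative log2 fold change, as had 8768 of all 17459 genes tested. This count depends on the genes tested: the floor of 5 on the mean TPM moved *Ctsd* from -0.70 to -0.33. The signs of these cathepsins under that floor are not given here. In the main fit 1 was called lower. With the block *Ctsk*, which encodes the collagen-cutting cathepsin K, was called lower as well (log2 fold change -1.80, edgeR adjusted p 0.0223). *Ctsl*, a lysosomal cysteine protease, was at 206, 206 and 262 TPM in AAV-CTRL 1, 2 and 3 and at 20.4, 63.6 and 84.5 TPM in AAV-VEGF-C 1, 2 and 3 (log2 fold change -1.01, SE 0.26, edgeR adjusted p 0.0472). *Ctsb* came second in level, and its log2 fold change was -0.37 (SE 0.76, adjusted p 0.802).

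Of the 4 procollagen genes 1 was called, and it was the scarce one. *Col2a1*, the collagen of cartilage, was higher (log2 fold change 4.08, SE 0.65, edgeR adjusted p 0.0193). Its means were 0.455 TPM in AAV-CTRL and 2.51 TPM in AAV-VEGF-C. Of its 185 counts in AAV-VEGF-C, 163 came from replicate 3, the deepest library of that group, and 9 and 13 from replicates 1 and 2. In scaled CPM it was at 20.8, 9.32 and 46.9 in AAV-VEGF-C 1, 2 and 3, against 1.15 to 1.93 in AAV-CTRL. The groups did not overlap in TPM or in CPM. *Col1a1* and *Col1a2* were at 653 and 567 TPM in AAV-CTRL, with log2 fold changes of -0.65 and -0.79 (adjusted p 0.506 and 0.398). Among the 6 protease inhibitors of the matrix, *Reck*, which encodes a membrane-anchored inhibitor, was lower (-1.41, SE 0.33, adjusted p 0.0358), and *Timp4* was higher (3.04, SE 0.79, adjusted p 0.0476) on at most 15 counts in an AAV-CTRL library. *Timp4* and *Timp3* have exons that overlap *Syn2* and *Syn3* on the other strand, so their counts are uncertain. The most abundant inhibitors of that list, *Timp2* and *Timp3*, had log2 fold changes of -0.60 and -0.59 (adjusted p 0.262 and 0.372). Each of the 6 called genes lost its call in at least 4 of the 6 fits that left out 1 library. Calls among all genes fell as well, from 1835 higher and 115 lower in the main fit. Dropping AAV-CTRL 2 left 0 calls, and so did dropping AAV-CTRL 3. Dropping AAV-VEGF-C 2 left 8 higher and 0 lower, and dropping AAV-VEGF-C 3 left 320 and 8. The fall was smaller when AAV-CTRL 1 was dropped (1771 and 48) and when AAV-VEGF-C 1 was (1232 and 43).

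**Figure D5:**
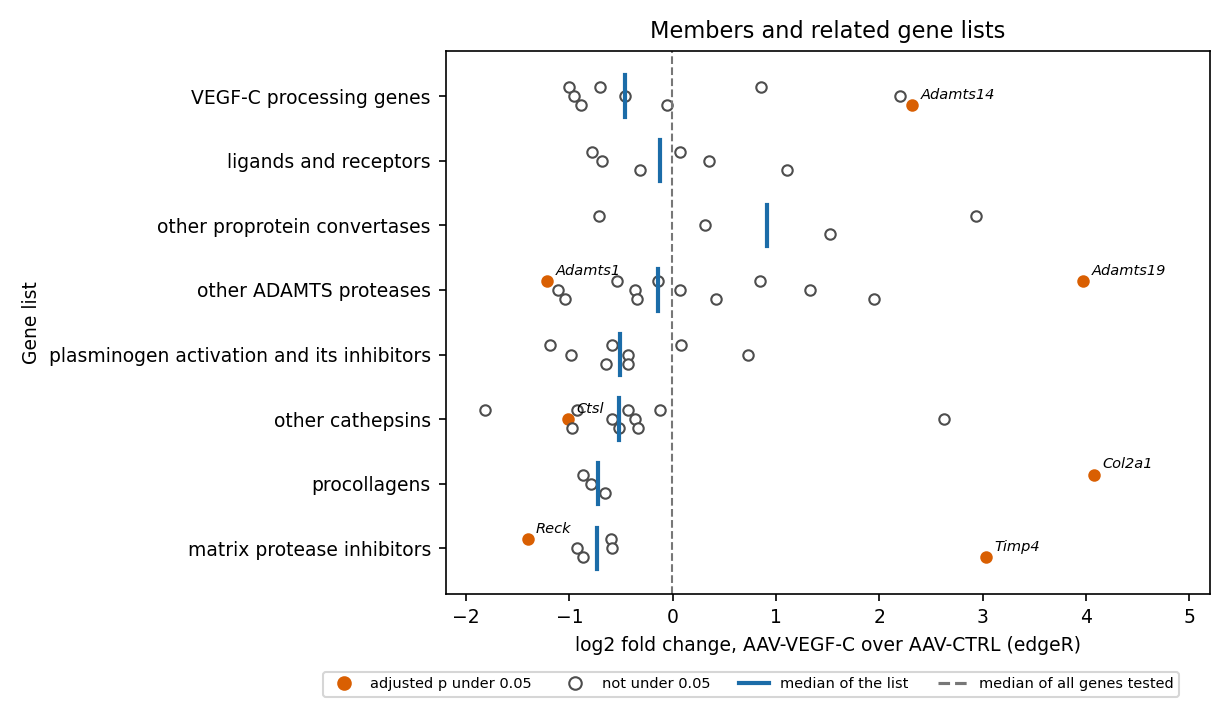
The horizontal axis gives the edgeR log2 fold change, AAV-VEGF-C over AAV-CTRL, for each tested gene of the 9 members and of 7 related lists, with a blue bar at the median of each list and a dashed line at the median of all genes. Filled and named points have an adjusted p under 0.05: *Adamts14*, *Adamts19*, *Col2a1* and *Timp4* are higher, and *Adamts1*, *Ctsl* and *Reck* are lower.

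The likeness of patterns across libraries was described by Pearson's r of log2(TPM + 1) over the 6 libraries, among 6398 protein-coding genes whose mean TPM was 5 or more. Genes most like *Ccbe1* were *Gipc2* (0.983), *Telo2* (0.956) and *Myh14* (0.926), and those most like *Adamts3* were *Lmx1b* (0.994), *Pdzrn3* (0.987) and *Plce1* (0.986). These values share the depth and the group difference of the libraries, and they are given as a description.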

How the data were processed

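Bulk RNA-seq of sorted dural LECs was analysed from 6 libraries, which the labels place in 2 groups of 3. For each library the authors deposited a table of estimated counts, with no scaling applied, and one of TPM. The submitters' processing notes name FastQC, Trimmomatic, DRAGEN and Picard and the build mm10. Libraries were made with a stranded total RNA kit for low input, per the labels. The use of strand and of molecular identifiers in counting is not given in the sources used here. Gene identifiers matched GENCODE M21 on GRCm38 for 98.1% of rows with their version, and positions were taken from it.

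Counts were rounded, filtered by filterByExpr, scaled by TMM and tested with the quasi-likelihood test of edgeR 4.0.16 in R 4.3.3, with Benjamini-Hochberg adjustment over all 17459 genes tested. A gene was called at an adjusted p under 0.05. The SE is the fold change divided by the root of its F value. DESeq2 1.42.0 (the test of the study) and limma 3.58.1 on log2(TPM + 1) and log2(TPM + 0.1) were run as alternatives, with other scalings and filters and without each library. The fit was tested on simulated data. Scaled CPM within experiments had 0.5 added.

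The labels tie the library numbers to repeats of the experiment. With the mean of each group subtracted, the libraries sharing a number correlated across genes at 0.32, 0.20 and 0.12 for numbers 1, 2 and 3. Libraries with different numbers reached at most 0.19 (AAV-CTRL 3 with AAV-VEGF-C 2), so number 3 did not stand out. The main fit did not use the numbers as pairs. The fit with the experiment number as a block and the differences within experiments did. Libraries of 1 group differed by more than sampling noise (the lowest chi-square per degree of freedom was 7.70). P-values measure the spread between pools of animals.

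The 9 members and the lists were chosen with earlier results of these data known. The genes named are the members, in each list the called genes (at most 3) and the 2 highest in AAV-CTRL, the markers, and the 3 genes most like *Ccbe1* and *Adamts3*. The other genes that overlap members, *Plg*, *Ctsk*, *Adamts5* and the genes compared in ratios were named after their values were seen. Totals ran from 564475 to 12399498 counts, and in AAV-VEGF-C 1 the counts of single members were as low as 5.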

Additional observations from a re-analysis of the deposited data

How the results depend on the processing

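The calls among these genes depended on the processing. The number of members called higher was 1, and it became 2 with no filter, under DESeq2 and with the replicate block, where *Ccbe1* joined *Adamts14*. It became 0 with scaling on the 2000 most abundant genes, with a floor of 5 on the mean TPM (where 6 members were tested) and in both limma fits, and it ran from 0 to 1 without each replicate in turn. The number called lower was 0, and 3 with no filter (*Adamts2*, *Adamts3* and *Plat*), while the other fits gave 0. Across the fits not given in the report, the background ran from 0 to 11.9% higher and from 0 to 2.49% lower. For *Pcsk5* the log2 fold change of 0.85 turned to -0.78 with limma on log2(TPM + 1) and to -0.88 on log2(TPM + 0.1). For *Pcsk7* that of -0.056 turned to 0.30 with the floor on TPM and ran from -0.54 to 0.0154 without each replicate, the latter without AAV-VEGF-C replicate 1. The signs of the other 7 members held in all fits that tested them. The replicate block changed no other member's call.

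Of the 52 genes of the 7 lists that were tested, 3 were called higher (background 10.5%). This became 8 of 62 with no filter (background 21.1%) and 6 under DESeq2 (background 18.6%). Each limma fit gave 1 of 52, where 1112 and 1281 of all 17459 genes were called higher. The floor on TPM gave 0 of 33, where 9 of all 7234 genes were called higher. Without both libraries of experiment 1 (an alternative chosen after seeing the data) it was 7 of 56, beside 1882 of all 19222 genes. It ran from 0 to 4 without each replicate, where 0 to 1771 of all genes were called higher. The 3 called lower (background 0.659%) became 1 under library size scaling and under scaling on the 2000 most abundant genes, beside 53 and 49 of all 17459 genes. Without both libraries of experiment 1 the number was also 1, beside 110 of all 19222 genes. With no filter 9 of 62 were lower (background 2.64%), and under DESeq2 7 were (background 1.60%). The replicate block gave 7 of 52 (background 2.07%), and the floor on TPM gave 0 of 33. Without each replicate the number ran from 0 to 1, where 0 to 48 of all genes were called lower. Members higher without overlap numbered 1 in TPM (background 12.8%) and 2 in CPM (background 20.6%). In TPM the number was 2 without both libraries of experiment 1 and ran from 1 to 2 without each replicate. The share of all genes was not computed for those smaller sets, so these numbers have no background to be read against. Members lower without overlap numbered 7 in TPM (background 36.4%) and 3 in CPM (background 19.1%). The difference in the log2 ratio of *Ccbe1* to *Adamts3* was 3.68 in TPM, 2.84 in counts and 3.37 to 4.12 without each replicate. The cause of these changes was not tested. The floor on TPM left 7234 genes to test, beside 17459 in the main fit. The shallowest library, AAV-VEGF-C 1 with 564475 counts, held 10 counts of *Adamts3*, 5 of *Adamts14* and 6 of *Plat*, and 3 counts there equal 5.31 CPM.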
